A study of Mus musculus with 2 samples.

Results

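The hearts of freely fed mice were compared between genotypes: 1 heart with Sirt1 removed from its cardiomyocytes against 1 control heart. Both were read in the same dye, Cy5, on different arrays. A gene entered the comparison where its probe was brighter than the blank spots of the array in both hearts, which 12783 of 16387 genes with a probe were. All mice were male, of the C57BL/6J strain and 6 months old, and these hearts came from mice fed ad libitum (AL) for 3 months. The other channel of each array, Cy3, held a heart of the same genotype after 3 months of caloric restriction (CR) by 40%. The study thus had 4 hearts on 2 arrays, 1 heart per condition, and 2 of the 4 hearts make this comparison. The knockout is described only as cardiomyocyte-specific. The labels do not name the promoter that drove the recombinase or the deleted exons, and none says whether the control mice carried the recombinase. Because each genotype had its own array, genotype, slide and mouse cannot be told apart. There is 1 heart a side, so no test was made, no value has an error over mice, and each difference describes these hearts.

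Sirt1 is a deacetylase that uses NAD and acts on histones and on transcription regulators, among them PGC-1alpha, FOXO factors and p53, and it has been studied in the heart for its part in energy metabolism and in the resistance to stress. Adult mouse ventricle makes its contractile apparatus mainly from the alpha myosin heavy chain (Myh6), the ventricular light chains Myl2 and Myl3 and cardiac actin. A set of genes typical of the fetal heart, such as the beta myosin heavy chain (Myh7), skeletal actin (Acta1) and the natriuretic peptides (Nppa, Nppb), is known to be turned up when the heart muscle is under load.

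In the Cy5 channel 80.7% of probes were above the blank spots in the control heart and 77.6% in the knockout heart, and their median signal over the blank was 30.0 and 34.1 scanner units. Of 23473 probes, 6842 carried no gene symbol and are not named. A positive control printed in 24 spots per array was higher on the knockout array by 0.24 on the log2 scale before normalization, and another was lower at -0.84. The part of these shifts in the differences between the hearts was not tested. Between compared probes of 1 gene, the difference between the hearts had an SD of 0.24 on the log2 scale (157 genes). It was 0.36 where all probes were at or above the median signal (43 genes). Over all compared genes the SD of the difference was 0.26, and 0.35 at or above the median signal. Probes of 1 gene thus varied about as much as genes did, so a value from 1 probe may not stand for its gene.

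The signal of Sirt1 was 7.11 (log2) with the control and 7.07 with the knockout genotype under AL, which is a difference of -0.04. Under CR it was 7.53 and 7.51. The knockout hearts were thus barely below the control hearts, and with the local background around each spot subtracted the AL difference was 0.23. Where this probe lies with respect to the removed exons is unknown, and whole hearts include cells that keep the gene, so the probe does not check the genotype. None of the 20 compared genes of the sirtuin and NAD list was at least 1.5-fold apart (14 higher, 6 lower, median 0.05). Within it, Nmrk2, a nicotinamide riboside kinase of muscle, was at 0.49, the mitochondrial desuccinylase Sirt5 at 0.47, the DNA repair enzyme Parp1 at 0.30 and Nampt, which makes the NAD precursor NMN, at -0.24.

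Differences are given throughout as log2 signal in the knockout heart minus log2 signal in the control heart, so 1 stands for a 2-fold higher signal in the knockout heart. Among all 12783 genes, the knockout heart was at least 2-fold higher for 57 (0.446%) and at least 2-fold lower for 15 (0.117%). At least 1.5-fold apart were 329 genes higher (2.57%) and 227 lower (1.78%). The median difference was 0.01, and 52.6% of genes were higher by any amount, so the lists described here are read against a background close to 0. From the 5th to the 95th percentile the differences ran from -0.39 to 0.43. Their size grew with the signal: cut into 10 equal bins of signal, no gene of the 3 dimmest bins was 1.5-fold apart, while 230 of 1279 genes in the brightest bin were. Counts past 1.5-fold in lists of bright genes are thus to be read against the bright bins and not against all genes. All 57 and all 15 lay at or above the median signal, where they made up 0.892% and 0.235% of 6392 genes.

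**Figure D1:**
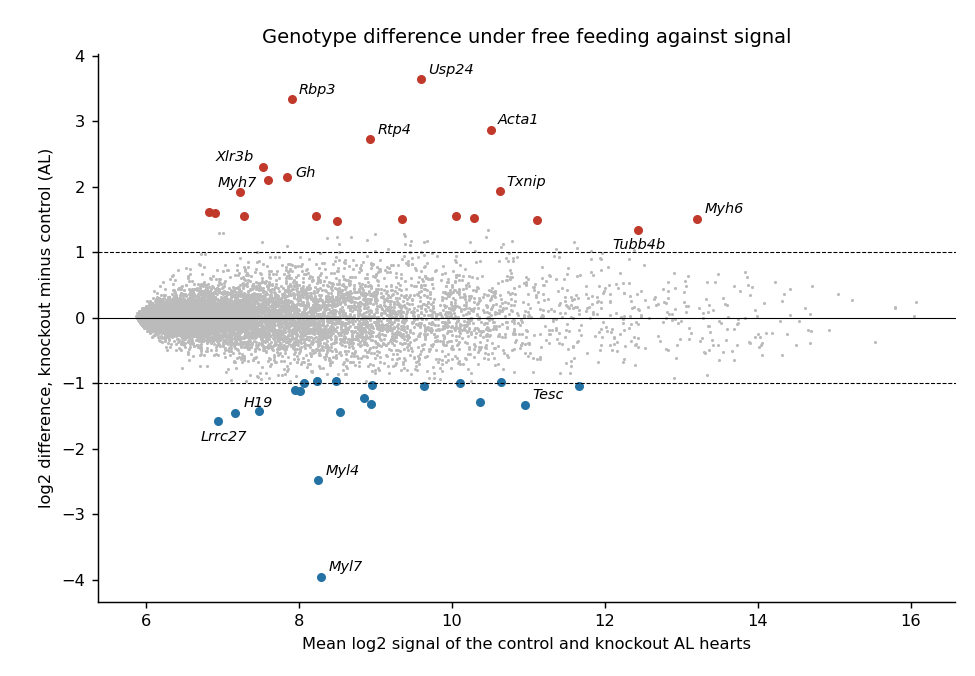
Log2 difference between the knockout and the control AL heart (vertical axis) against the mean log2 signal of both hearts (horizontal axis), 1 point per compared gene; red and blue points are the 20 highest and 20 lowest genes at or above the median signal, and dashed lines mark 2-fold. The cloud widens with the signal up to the middle of the range, and Usp24 (3.65) and Myl7 (-3.95) lie farthest from 0.

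The genes farthest above control were of mixed function. Usp24, a deubiquitinating enzyme, was at 7.77 on the log2 scale in the control and 11.42 in the knockout heart, 12.5-fold higher. Rbp3, the retinoid-binding protein of the space around photoreceptors, went from 6.23 to 9.57, 10.1-fold higher. Acta1, skeletal muscle actin, had 9.07 in the control and 11.94 in the knockout heart, 7.33-fold higher. These signals correspond to 183 and 2314 scanner units for Usp24, 50.5 and 668 for Rbp3 and 495 and 3253 for Acta1, so all 3 were higher in the knockout heart in the scanner's own units too. Rtp4, an interferon-induced chaperone of membrane receptors, was at 7.56 and 10.29 (6.64-fold). Xlr3b, an X-linked gene of the lymphocyte-regulated family, was at 6.37 and 8.68 (4.94-fold), and Gh, pituitary growth hormone, at 6.76 and 8.92 (4.46-fold). Beta myosin heavy chain, Myh7, was at 6.54 and 8.65 (4.31-fold).

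Of the remaining 13 of the 20 highest genes, several belong to muscle or to energy metabolism. Txnip, which restrains glucose uptake and binds thioredoxin, was at 9.65 in the control and 11.59 in the knockout heart (3.82-fold). The muscle genes among them were Myot, a Z-disc protein (2.94-fold), Myom2 (10.36 and 11.85), a protein of the M-band, and Myh6 (12.45 and 13.96). The pyruvate kinase gene Pkm had signals of 9.28 and 10.83. Tubb4b, a beta tubulin, was at 11.75 and 13.10, and Mt2, a metal-binding metallothionein, was 2.84-fold higher. Egr1, an immediate early transcription factor, was at 6.50 and 8.05, and Rrad, a small GTPase that inhibits the L-type calcium channel, at 9.51 and 11.05. Further genes on this end were Dgkb, a diacylglycerol kinase (1.93), Chat, which makes acetylcholine (1.61), the olfactory receptor Olfr298 (1.61) and the RNA-binding protein Hnrnpa3 (1.48). Hnrnpa3 was the only gene among the 57 with another compared probe, and that probe was at -0.11. In all the settings run, 16 of these 20 genes stayed at least 1.5-fold higher. The exceptions were Txnip (0.23), Chat (0.42), Pkm (-1.37) and Rrad (-1.90) with the local background subtracted.

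At the other end stood the atrial myosin light chains. Myl7, the atrial regulatory light chain, was at 10.26 in the control and 6.31 in the knockout heart, 15.5-fold lower. In scanner units the spot read 1198 in the control and 57.0 in the knockout heart. Myl4, the atrial essential light chain, went from 9.49 to 7.01, 5.55-fold lower. The control heart was thus high and the knockout heart low for both partners of the atrial light chain pair. Lrrc27, a leucine-rich repeat gene of little known function, was at 7.73 and 6.16 (2.98-fold lower), and H19, an imprinted non-coding RNA of fetal growth, at 7.88 and 6.44 (2.72-fold lower). Pla2g5, a secreted phospholipase, was at 9.25 and 7.82, and Cytl1, a secreted cytokine-like protein, at 8.18 and 6.76.

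Below these, the differences of the 20 lowest genes were closer together. Tesc, a calcium-binding protein that regulates a sodium-proton exchanger, was at 11.61 in the control and 10.29 in the knockout heart (-1.32). Cmss1 was at -1.31, Coq2, an enzyme of ubiquinone synthesis, at -1.29, and Il15, a cytokine made by muscle and myeloid cells, at -1.22. Stard10, a lipid transfer protein, was at -1.11, the methionine synthase Mtr at -1.10, the p53 target Ccng1 and the tubulin cofactor Tbca both at -1.04 and the lysosomal protease Ctsh at -1.03. The genes at -1.04 and -1.03 were just past 2-fold. The centromere genes Cenpa (-0.99) and Cenpf (-0.99), the elongation factor Eef1b2 (-0.97), Tnp2 (-0.97) and Cebpzos (-0.96) were just under it. In all the settings run, 15 of the 20 stayed at least 1.5-fold lower. The exceptions, all with the local background subtracted, were Cytl1 (-0.56), Eef1b2 (-0.51), Ctsh (-0.35), Cenpf (-0.32) and Tnp2, a protein of sperm chromatin (0.38).

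Acta1 and Myl7 were the muscle genes farthest apart in opposite directions, and their promoters are shown for that reason. Both hold the sequence known as the CArG box, the site to which serum response factor binds in many muscle genes. The sequences are the 250 bases before the annotated start of each gene, 5′ to 3′ on the gene's own strand, from RefSeq on GRCm38.p6. Acta1 lies on the minus strand (chr8:123894776-123895025) and Myl7 on the minus strand (chr11:5898783-5899032). Capitals mark the CArG box, searched on both strands.
Acta1: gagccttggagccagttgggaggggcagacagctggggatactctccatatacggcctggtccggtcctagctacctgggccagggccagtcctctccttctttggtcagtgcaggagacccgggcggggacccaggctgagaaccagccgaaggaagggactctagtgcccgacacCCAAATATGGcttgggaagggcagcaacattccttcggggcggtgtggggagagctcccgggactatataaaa
Myl7: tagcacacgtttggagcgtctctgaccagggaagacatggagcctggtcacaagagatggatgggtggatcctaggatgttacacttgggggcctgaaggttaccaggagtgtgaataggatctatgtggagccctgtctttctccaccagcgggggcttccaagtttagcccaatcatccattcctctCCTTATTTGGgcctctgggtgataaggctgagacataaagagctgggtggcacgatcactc
The box begins 73 bases before the start of Acta1 and 61 bases before that of Myl7. Of 32851 promoter windows of this length in the table, 1.47% hold such a box. In the thin filament list 3 of 16 genes with a window hold one (18.8%), in the immediate early list 2 of 20, and in the glycolysis list 0 of 22. The gene above control and the gene below it both carry the match, which is a description of the letters and not of a factor's binding. The CArG box search was added after the differences were known.

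Atrial genes as a list had no common direction. Of 14 compared, 7 were higher and 7 lower, with a median of 0.02. Nppa, the atrial natriuretic peptide, was at 10.24 in the control and 11.24 in the knockout heart (0.99), although it is made mainly in the atria of the adult heart. Sln, the atrial regulator of the calcium pump, was at -0.09, Bmp10, an atrial growth factor, at -0.00, and Kcna5, Gja5, Nr2f2 and Tbx5 lay between 0.04 and 0.17. The members far below control were therefore Myl7, Myl4 and Stard10, and those far above it Myh6 and Nppa. Myh6 is also among the cardiomyocyte markers and Nppa in the fetal programme list, so neither reads atrial tissue alone. With 1 whole heart a side, a different share of atrial tissue and different RNA per atrial cell cannot be told apart. The ventricular light chain Myl2 read 65197 scanner units in the control and 62401 in the knockout heart, at or near the scanner limit, so its values (16.03 and 16.07) can show no difference. Its ventricular partner Myl3 was at 10.58 and 10.33.

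**Figure D2:**
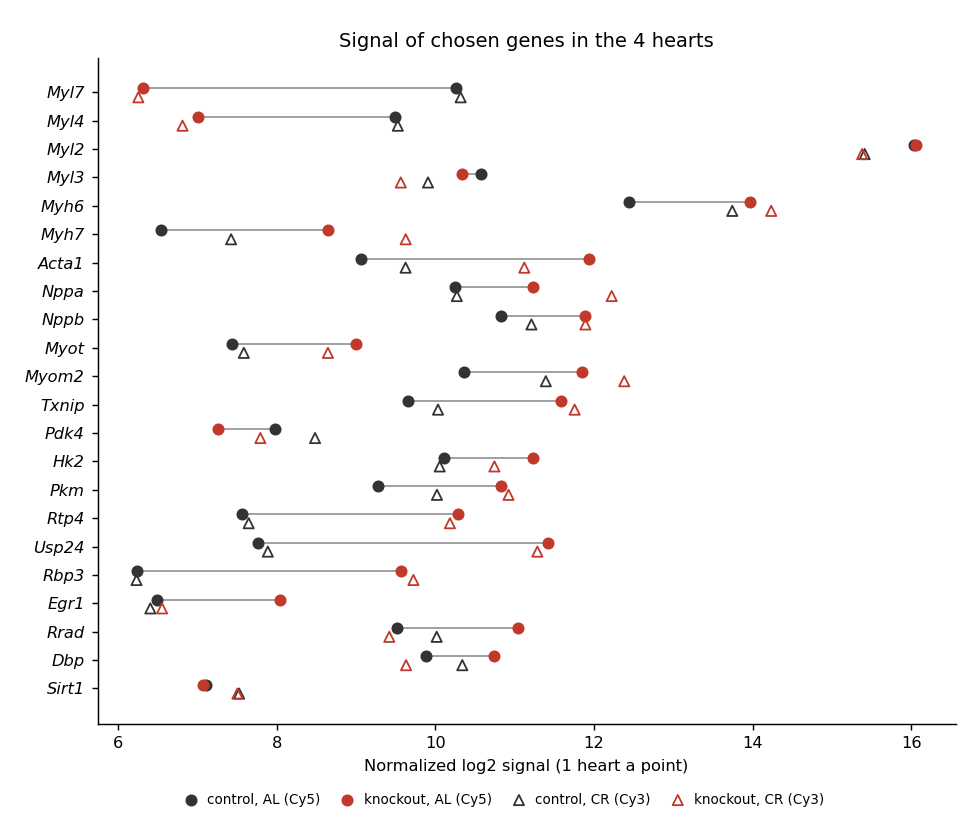
Normalized log2 signal (horizontal axis) of 22 chosen genes in each of the 4 hearts: filled points are the AL hearts read in Cy5, joined by a line, and open triangles the CR hearts read in Cy3, black for control and red for knockout. Myl7 and Myl4 are low in both knockout hearts, Acta1 and Myh7 high in both, and Rrad and Dbp are higher in the knockout heart under AL and lower under CR.

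Sarcomere genes were mostly higher in the knockout heart. In the thin filament 14 of 15 compared genes were higher and 4 of them at least 1.5-fold, with a median of 0.30. Besides Acta1 these were the actin crosslinker Actn2 (11.87 in the control and 12.76 in the knockout heart), the pointed-end cap Tmod1 (9.56 and 10.24) and Nebl, the cardiac relative of nebulin (8.35 and 8.98). The troponins stayed close together, with Tnnt2 at 0.28, Tnnc1 at 0.16 and Tnni3, the single member below control, at -0.19. For the Z-disc, the M-band and proteins bound to titin, 16 of 21 genes were higher, 7 of them at least 1.5-fold and none that much lower, with a median of 0.43. Myot (1.56), Myom2 (1.49), Nexn (1.23), which binds actin at the Z-disc, Ldb3 (1.01), also called Cypher, and the methyltransferase Smyd1 (0.87) led the list. Titin itself, Ttn, the spring of the sarcomere, was at 0.65, 1.31 and 0.92 with its 3 compared probes. The chaperone Cryab (-0.42) and the ubiquitin ligase Trim63 (-0.39) were on the other side. Mybpc3, which binds myosin in the thick filament, was at 11.37 and 12.26 (0.90), but at -0.88 with the local background subtracted. Scaling the arrays by their medians alone lowered the Z-disc median to 0.17 and left the thin filament median at 0.16.

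The genes of the fetal programme split into a few far above control and many near it. Of 19 compared, 13 were higher and 6 lower, 4 were at least 1.5-fold higher, and the median was 0.26. These 4 were Acta1 (2.87), Myh7 (2.11), Nppb (10.83 and 11.88, 1.06) and Nppa (0.99), the markers most used to read the programme. The stress-responsive repressor Ankrd1 was at 0.44 (-0.23 with the local background subtracted), Xirp2 at 0.43 and the transcription factor Mef2a at 0.41. By contrast the transcription factors Gata4 (0.06), Srf (-0.10), Gata6 (-0.07) and Hand2 (-0.19) and the calcineurin regulator Rcan1 (-0.03) lay within the middle of all genes, and Ccn2, connective tissue growth factor, was at -0.49. Nppb was at -0.72 with the local background subtracted, while Nppa was at 0.89. Both myosin heavy chains were higher, the alpha chain Myh6 by 1.51 and the beta chain Myh7 by 2.11.

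Calcium handling genes, as a list, had a median of 0.14 with 13 of 19 higher. The median was 0.02 with scaling by medians (11 of 19 higher) and -0.11 with the local background subtracted (6 of 19 higher). Rrad was the 1 member at least 1.5-fold apart. The ryanodine receptor Ryr2 was at 0.47, the junctional protein Asph at 0.45, the calcium pump Atp2a2 at 0.36 and Hrc, the histidine-rich calcium buffer, at 0.36. The first 3 were below control with the local background subtracted, at -0.23, -0.29 and -6.37. Before subtraction the Atp2a2 spot read 19342.5 scanner units in the control and 19398.5 in the knockout heart. Its -6.37 thus arose with the subtraction and does not show a lower spot signal. Its 0.36 likewise arose with the normalization and does not show a higher spot signal. With scaling by medians Atp2a2 was at 0.07. The pump's inhibitor Pln (-0.04), the sodium-calcium exchanger Slc8a1 (-0.07) and the channel pore Cacna1c (0.00) were near equal in both hearts, and the channel subunit Cacna2d1 was at -0.46. Among ion channels and connexins 8 of 18 were higher and 10 lower (median -0.03). Its 4 members farthest from 0 were all potassium channel genes of repolarization. Kcne1 was at 7.16 in the control and 6.43 in the knockout heart (-0.73), its pore partner Kcnq1 at 6.81 and 6.29 (-0.52), Kcnh2 at 8.37 and 7.80 (-0.57) and Kcnd2 at 7.65 and 7.18 (-0.47, but 0.00 with the local background subtracted). The ATP-sensitive channel's receptor Abcc9 was at 0.31, and the main ventricular connexin Gja1 at -0.21.

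Glucose metabolism had the highest list median, 0.51. Of 23 compared genes of glycolysis and glucose uptake, 22 were higher in the knockout heart and 10 at least 1.5-fold, and none was that much lower. The pathway was higher along nearly its whole length. Hk2, the insulin-responsive hexokinase, was at 10.11 in the control and 11.23 in the knockout heart (1.13), Hk1 at 0.74 and the glucose transporter Slc2a4 at 0.45. Phosphofructokinase, the committed step, was higher for the muscle subunit Pfkm (11.09 and 12.17, 1.07), the platelet subunit Pfkp (0.87) and the liver subunit Pfkl (0.51). Downstream, Tpi1 was at 0.71, Gapdh at 0.73, Pgam1 at 1.17, Eno1 at 0.80, Pkm at 1.55 and Ldha and Ldhb at 0.36 and 0.55. The 1 gene below control was Pfkfb1 (-0.40), an isoform of the enzyme that sets the level of the phosphofructokinase activator. Scaling by medians alone left 22 of 23 higher with a median of 0.24. Under the subtracted local background 18 were higher and the median was 0.47. Gpi1 (-1.78), Pkm (-1.37), Pgk1 (-0.86), Ldha (-0.29) and Pfkfb2 (-0.12) were then below control and Pfkfb1 (0.13) above it.

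Glycogen genes were higher in 10 of 12 with a median of 0.19. The muscle phosphorylase Pygm, which breaks glycogen down, was at 0.64 (but -0.94 with the local background subtracted), and the synthase Gys1 was at 0.35, so enzymes of breakdown and of synthesis were both above control. In the list of pyruvate dehydrogenase kinases and fuel switching the members diverged. Txnip (1.93) and Bdh1, a ketone body enzyme (0.90), were at least 1.5-fold higher. Ucp2 went from 8.35 in the control to 7.39 in the knockout heart (-0.96), Pdk4, the kinase that shuts off pyruvate dehydrogenase when fat is burned, from 7.99 to 7.26 (-0.73) and Ucp3 from 7.32 to 6.73 (-0.60). The other kinases Pdk1 (0.13), Pdk2 (0.30) and Pdk3 (-0.02) were closer to 0. Bdh1 was at -0.47 and Txnip at 0.23 with the local background subtracted, while Ucp2, Pdk4 and Ucp3 stayed at least 1.5-fold lower in every setting run.

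In the Krebs cycle and pyruvate dehydrogenase 21 of 24 genes were higher, 6 at least 1.5-fold, with a median of 0.43. Every subunit of the pyruvate dehydrogenase complex on the list was above control, with Pdha1 at 0.74, Pdhb at 0.68, Dld at 0.67, Dlat at 0.62 and Pdhx at 0.55. In the cycle itself Sdha, the flavoprotein of succinate dehydrogenase, was at 12.03 in the control and 13.15 in the knockout heart (1.12), fumarase (Fh1) at 0.64 and Idh3g at 0.55. The carrier that brings pyruvate into the mitochondrion was on the other side, with Mpc2 at 8.02 and 7.35 (-0.67) and Mpc1 at -0.18. With the local background subtracted 12 of 24 were higher, the median was 0.064, Fh1 was at -0.65 and Dlat at -3.83.

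Fatty acid uptake and oxidation genes were higher in 20 of 28 with a median of 0.25, but the median was 0.03 with scaling by medians and -0.13 with the local background subtracted. Acsl1, which activates long-chain fatty acids, was at 9.79 in the control and 10.81 in the knockout heart (1.02), Etfdh, which hands electrons from beta-oxidation to ubiquinone, at 11.47 and 12.45 (0.98), Acot2 at 0.68, Acadvl at 0.64, Cd36, the fatty acid transporter, at 0.56 and Lpl at 0.56. Decr1 and Eci2, auxiliary enzymes for unsaturated fatty acids, were at -0.76 and -0.46, and Slc27a1, another transporter, at -0.47. Acadvl was at -0.76 with the local background subtracted. The nuclear regulators of these genes stood closer to 0: Ppargc1a, whose product is a substrate of Sirt1, was at 8.59 and 8.99 (0.39, with its other probe at -0.03), Ppargc1b at 0.36, Ppara at 0.15, Tfam at 0.51 and Esrra at -0.44. None of the 15 compared regulators was at least 1.5-fold apart, and their median was 0.18, or -0.10 with the local background subtracted.

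Respiratory chain genes leaned the other way. Of 35 complex I genes 23 were lower (median -0.13), and of 35 genes of complexes III and IV and ATP synthase 26 were lower (median -0.18). The complex I members farthest below control were Ndufb11 (9.26 in the control and 8.53 in the knockout heart, -0.74), Ndufb4 (-0.67), the core subunit Ndufs8 (10.99 and 10.43, -0.56) and Ndufab1 (-0.46). In the other complexes they were Atp5k (13.37 and 12.44, -0.92), Atp5e (-0.65), Cox6c (-0.57) and Cox6a2 (-0.56). Farthest above control were Ndufs1 (0.94) and Ndufv1 (0.53) in complex I, and Uqcrc1 (0.66), Uqcrc2 (0.63) and Atp5c1 (0.37) in the others. Complexes III and IV and ATP synthase had a median of -0.45 with scaling by medians and 0.22 with the local background subtracted. Complex I stayed below 0 in both, at -0.33 and -0.27, although Ndufb4 (1.93) and Ndufs1 (-0.70) changed sides under the subtracted background.

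**Figure D3:**
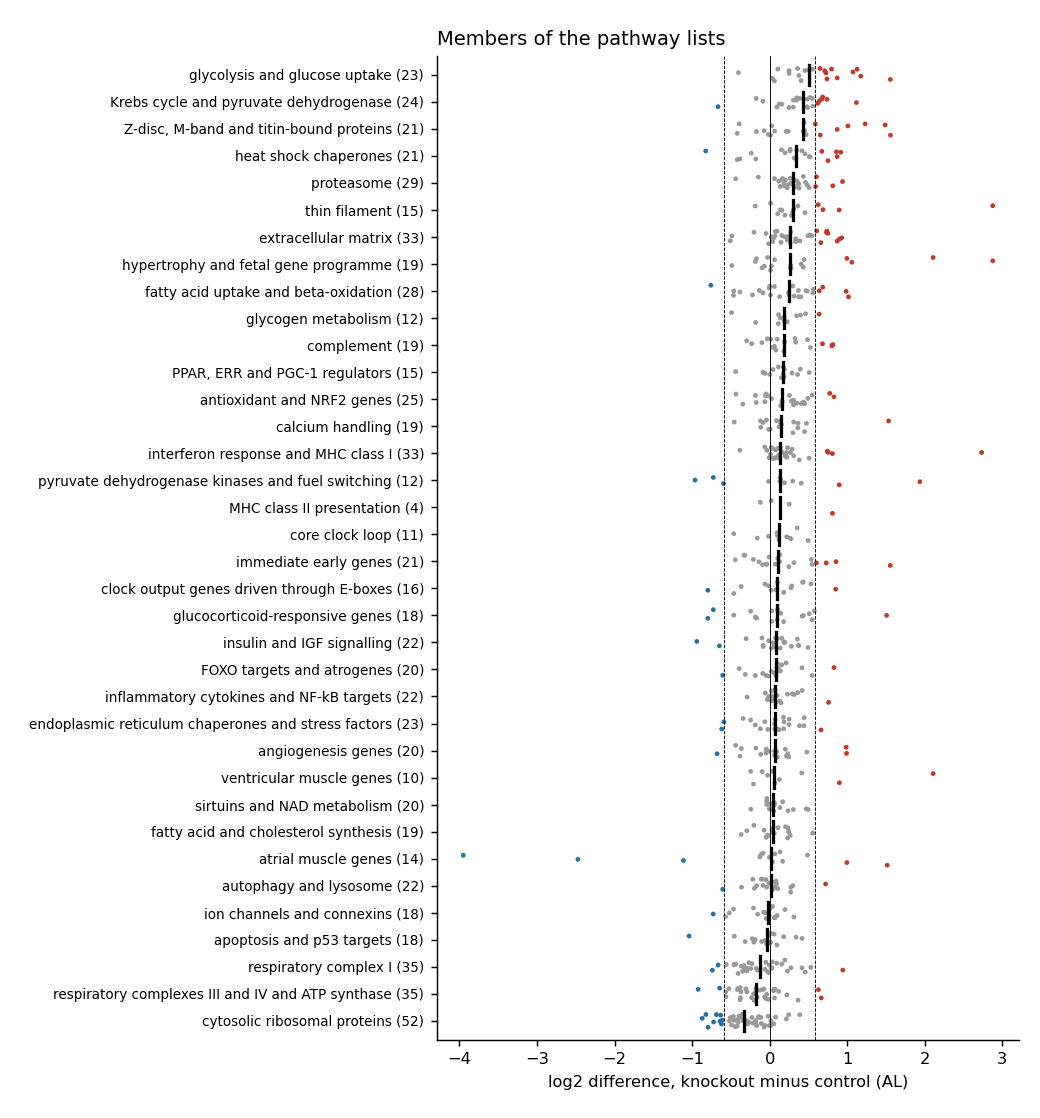
Log2 difference between the knockout and the control AL heart (horizontal axis) of each compared member of the 36 pathway lists, in order of their medians (black bars), with the number of members in brackets; dashed lines mark 1.5-fold, red points lie above and blue points below. Glycolysis (median 0.51) heads the order and ribosomal proteins (median -0.33) end it.

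Cytosolic ribosomal protein genes had the lowest list median, -0.33. Of 52 compared, 45 were lower in the knockout heart and 9 at least 1.5-fold, and none was that much higher. Rps27 was at 13.77 in the control and 12.90 in the knockout heart (-0.87), Rpl39 at 11.22 and 10.39 (-0.82), Rpl13a at 8.96 and 8.17 (-0.79) and Rpl10a at 12.75 and 12.03 (-0.72). The members above control were few, with Rpl6 at 0.39, Rpl4 at 0.24 and Rps15a at 0.22 the highest. The median was -0.65 with scaling by medians (5 of 52 higher) and -0.13 with the local background subtracted (20 of 52 higher). Of the 52, 44 were at or above the median signal, and the median of the brightest of the 10 bins was 0.03 in the main setting and -0.16 with scaling by medians. The part of brightness in the ribosomal values was not tested.

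Proteasome genes ran opposite to ribosomal ones, with 27 of 29 higher, 4 of them at least 1.5-fold, and a median of 0.30. Scaling by medians left 20 of 29 higher with a median of 0.12. Under the subtracted local background 16 of 29 were higher and the median was 0.45. In the brightest bin of signal 230 of 1279 genes were 1.5-fold apart, so the count of 4 does not set apart the proteasome genes. The highest were subunits of the regulatory particle, the lid proteins Psmd12 (9.58 in the control and 10.52 in the knockout heart, 0.94) and Psmd3 (0.81) and the base protein Psmd1 (0.60, but -0.016 with the local background subtracted), while the core subunit Psma7 was at -0.44. Cytosolic and mitochondrial chaperones were higher in 16 of 21 with a median of 0.34. Hspd1, the mitochondrial chaperonin, was at 11.47 and 12.39 (0.91), Hsp90aa1 at 0.87, Hspb7, a small heat shock protein of heart muscle, at 0.86 and Dnajb4 at 0.75, whereas Dnajb1, a co-chaperone that heat shock factor turns on, was at 8.57 and 7.75 (-0.82). The chaperone median was 0.018 with the local background subtracted, and Hsp90aa1 was then at -0.34, Hspd1 at 0.02 and Dnajb1 at -0.08. In the endoplasmic reticulum list 15 of 23 were higher with a median of 0.07 (-0.03 with the local background subtracted), with Hspa5 at 0.66 and Canx and Dnajb9 at -0.62 and -0.59. Of antioxidant genes 17 of 25 were higher (median 0.16), led by catalase (Cat, 0.83), Gstp1 (0.77) and the mitochondrial superoxide dismutase Sod2 (0.55). Autophagy and lysosome genes were split 11 and 11 around a median of 0.01 (-0.07 with scaling by medians), with the cargo receptor Sqstm1 at 0.72 and Map1lc3a at -0.61.

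Extracellular matrix genes were higher in 28 of 33, 8 of them at least 1.5-fold and none that much lower, with a median of 0.26. The proteoglycan lumican (Lum) was at 8.02 in the control and 8.95 in the knockout heart (0.93). Basement membrane genes Col4a2 (7.68 and 8.57, 0.90) and Nid1 (8.03 and 8.90, 0.87), the chains of fibrillar collagen I, Col1a1 (6.19 and 6.94, 0.75) and Col1a2 (0.61), the matricellular protein Sparc (0.74) and the protease inhibitor Timp2 (0.73) followed. Col4a1, the partner of Col4a2, was at 0.04, fibronectin (Fn1) at 0.09 and elastin (Eln) at -0.01, and Timp3 and Ccn2 were at -0.51 and -0.49. Fibroblast markers, which share collagen genes with this list, were higher in 11 of 15 with a median of 0.26, and among those that are not in the matrix list Tcf21 was at 0.66, Mfap5 at 0.40, Pdgfra at 0.17, Gsn at -0.15 and Dpt at -0.36. The summed linear signal of the 15 markers was 10872 in the control and 10641 in the knockout heart. With the local background subtracted the fibroblast median was -0.089 and Tcf21 was at -0.089 and Mfap5 at -0.52, while the matrix median was 0.14. The part of fibroblast content in the matrix values was not tested.

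Interferon and MHC class I genes were higher in 29 of 33, but by little, with a median of 0.14 and 4 members at least 1.5-fold. With the local background subtracted 17 of 33 were higher and the median was 0.05. Under CR the list median was -0.02. Besides Rtp4 the members at least 1.5-fold higher under AL were genes of MHC class I presentation. They were B2m (12.11 in the control and 12.91 in the knockout heart, 0.81), the immunoproteasome subunit Psmb8 (0.76) and the peptide transporter Tap2 (0.74). Rtp4 was at 2.73, and the next member below these 4 was the interferon-induced gene Ifit3 at 0.51 (-0.01 with the local background subtracted). Other genes that interferon induces were Irf7 at 0.01, Mx1 at 0.01, Ifit1 at 0.05, Oas2 at 0.02, Stat2 at 0.04 and Ifih1, a sensor of viral RNA, at -0.38. Complement genes were higher in 15 of 19 with a median of 0.18. The chains of C1q, which opens the classical pathway, were at 0.81 (C1qa), 0.80 (C1qb) and 0.68 (C1qc), and its protease C1s1 was at 0.80. C3 was at -0.10. Macrophage markers were higher in 10 of 12 with a median of 0.16 and none at least 1.5-fold. Cd68 was at 0.57 and Cx3cr1 at 0.33, Tyrobp at -0.40 (0.10 with the local background subtracted) and Aif1 at -0.22, and the summed signal was 1694 in the control and 1742 in the knockout heart. The part of macrophage content in the C1q values was not tested. Of MHC class II genes 3 of 4 were higher, with Ctss at 0.81, Cd74 at 0.25 and H2-Aa at 0.02. In the list of cytokines and NF-kB targets 18 of 22 were higher with a median of 0.07, and the chemokine Cxcl1 (6.13 and 6.89, 0.76) was the 1 member past 1.5-fold, though at 0.03 with the local background subtracted.

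Immediate early genes were split, with 12 of 21 higher and a median of 0.10. Egr1 (1.55), Junb (6.91 in the control and 7.76 in the knockout heart, 0.85), Fos (6.05 and 6.78, 0.73) and Ier2 (0.60) were at least 1.5-fold higher. Fosb (-0.44), Klf6 (-0.33), Klf4 (-0.32) and Atf3 (-0.21) were below control, and the Nr4a genes lay between -0.04 and 0.01. Fos was at 0.10 with the local background subtracted, while Egr1 was at 1.05 and Junb at 0.81. Core clock genes were all less than 1.5-fold apart (8 of 11 higher, median 0.12), with Rora at 0.49 and Per1, which also responds to glucocorticoids, at -0.46. Of 16 clock output genes 11 were higher, with a median of 0.10 that was -0.02 with the local background subtracted. Dbp, the classic output transcription factor, was at 9.89 and 10.74 (0.85) and Tsc22d3, which glucocorticoids turn on, at 9.73 and 8.93 (-0.80). The E-box CACGTG, through which the clock drives its outputs, stands on either strand in the 250 bases before the start of 4 of 13 output genes and 2 of 11 core genes. It stands as well in 4 of 22 glycolysis genes and 4 of 20 immediate early genes, and in 6.02% of all promoter windows.

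The glucocorticoid-responsive list held members on both ends. Of 18, 12 were higher (median 0.10, and -0.10 with the local background subtracted). Mt2 was at 1.51 and its neighbour Mt1, also a metallothionein, at 11.80 in the control and 12.31 in the knockout heart (0.51), whereas Tsc22d3 (-0.80), Pdk4 (-0.73) and Per1 (-0.46) were below control and the co-chaperone Fkbp5 was at 0.10. Metallothioneins bind zinc and copper and are turned on through metal response elements. The 250 bases before the start of both genes are shown because both were above control by unequal amounts, from RefSeq on GRCm38.p6, plus strand, for Mt2 at chr8:94172368-94172617 and for Mt1 at chr8:94178839-94179088. Capitals mark the core letters TGCGCNC or TGCACNC on either strand.
Mt2: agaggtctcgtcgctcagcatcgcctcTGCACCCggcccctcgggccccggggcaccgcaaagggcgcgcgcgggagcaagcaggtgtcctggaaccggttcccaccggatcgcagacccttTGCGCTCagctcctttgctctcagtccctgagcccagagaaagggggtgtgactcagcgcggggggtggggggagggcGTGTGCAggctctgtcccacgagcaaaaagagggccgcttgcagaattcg
Mt1: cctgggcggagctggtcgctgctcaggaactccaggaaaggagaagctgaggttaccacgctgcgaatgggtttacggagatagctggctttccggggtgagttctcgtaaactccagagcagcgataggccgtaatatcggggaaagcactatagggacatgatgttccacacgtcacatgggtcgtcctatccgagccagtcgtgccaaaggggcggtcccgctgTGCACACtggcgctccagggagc
The window of Mt2 holds 3 such matches, beginning 223, 128 and 50 bases before the start, and that of Mt1 holds 1, beginning 23 bases before it. Bases past the annotated start were not searched, so both counts depend on where that start is set. They are not a full count of the elements of either gene, and a link to the unequal differences was not tested. No match overlaps another. Among all 32851 windows 12.5% hold TGCGCNC and 10.4% hold TGCACNC, so single matches are common. This search was likewise added after the differences were known. Mt1 was at -0.36 with the local background subtracted and Mt2 at 0.60.

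Growth factor and vessel genes had medians near 0 with single genes farther out. In insulin and IGF signalling 15 of 22 were higher (median 0.09, and -0.14 with the local background subtracted). Igf2, the fetal growth factor that shares its imprinted locus with H19, was at 7.58 in the control and 6.64 in the knockout heart (-0.94), in the same direction as H19 (-1.44), and Akt2, a kinase of insulin signalling, was at 8.95 and 8.31 (-0.65). Both Igf2 and H19 stayed at least 1.5-fold lower in every setting run. Among angiogenesis genes 11 of 20 were higher (median 0.06, and -0.12 with the local background subtracted). The VEGF receptor Flt1 was at 9.24 and 10.23 (0.99) and the co-receptor Nrp1 at 7.78 and 8.76 (0.99), whereas the ligand Vegfb, which binds both, was at 12.58 and 11.90 (-0.68, and -0.13 with the local background subtracted). FOXO targets were higher in 13 of 20 (median 0.09) and genes of fatty acid and cholesterol synthesis in 12 of 19 (median 0.04). Genes of apoptosis and p53 targets were higher in 7 of 18 (median -0.03), with Ccng1 at -1.04 and Fas at -0.46. Fas was at 0.03 with the local background subtracted.

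Markers of the cell types a whole heart can hold were read the same way. Of 15 cardiomyocyte markers, the 13 with a probe were all detected, and 10 of 13 were higher with a median of 0.28. Scaling by medians left 9 of 13 higher with a median of 0.07. Farthest above control were Myh6 (1.51), Mybpc3 (0.90), Actn2 (0.89) and the mitochondrial creatine kinase Ckmt2 (0.70), while Ckm was at 0.01. Endothelial markers had 7 of 15 higher and a median of -0.01. Robo4 (0.78) and Flt1 (0.99) were past 1.5-fold and Egfl7 was at -0.48. Smooth muscle and pericyte markers were higher in 10 of 11, but 2 genes, Rgs5 (8.07 and 9.30, 1.23) and Smtn (7.75 and 8.97, 1.22), made up most of that, with Acta2 at 0.10, Cnn1 at 0.09 and a median of 0.10, and Rgs5 was at -0.97 and Smtn at 0.01 with the local background subtracted. Adipocyte markers were lower in 7 of 8, by at most 0.23, and epicardial and mesothelial markers in 6 of 6, with Upk3b at -0.51 and Aldh1a2 at -0.22. All 5 compared neutrophil markers were higher, with S100a9 at 6.28 and 7.25 (0.97) and S100a8 at 0.42. Lung epithelial markers were compared for 4 of 8, all below the median signal, and lay between -0.10 and 0.02, and the T and B cell markers between -0.16 and 0.14. Of the skeletal muscle markers besides Acta1, the light chain Myl1 was at -0.77 and Mybpc2 at 0.52, while Pvalb (0.11), Tnni2 (-0.01), the fast myosin Myh4 (0.05) and the fast-fibre actinin Actn3 (-0.02) were near 0.

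The CR hearts on the same arrays give the same genotype difference in other mice and the other dye, but share the slides. Among 11957 genes compared there, 24 (0.201%) were above and 12 (0.1%) below control by 2-fold or more, and 51% were higher by any amount. Over 11698 genes compared under both diets the differences had a Pearson correlation of 0.778 and a Spearman correlation of 0.692, given as a description, since both comparisons use the same 2 slides. Of the 57 genes 2-fold higher under AL, 56 were higher under CR and 17 at least 2-fold, and of the 15 lower, all 15 were lower and 5 at least 2-fold. Rrad was the exception among the 57. Myl7 went from 10.32 in the control to 6.26 in the knockout CR heart (-4.06), Myl4 from 9.53 to 6.81 (-2.71), Myh7 from 7.43 to 9.63 (2.20), Usp24 from 7.89 to 11.29 (3.40), Rbp3 from 6.23 to 9.72 (3.49) and Rtp4 from 7.65 to 10.18 (2.54). For these genes the knockout heart stood on the same side of the control heart in both dyes. Acta1 was at 9.63 and 11.12 under CR, against 9.07 and 11.94 under AL, Xlr3b at 6.46 and 7.33 (0.86 against 2.31), Myh6 at 0.49 against 1.51 and Egr1 at 0.15 against 1.55, so their AL differences were larger. Nppa was larger under CR, at 1.95 against 0.99.

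**Figure D4:**
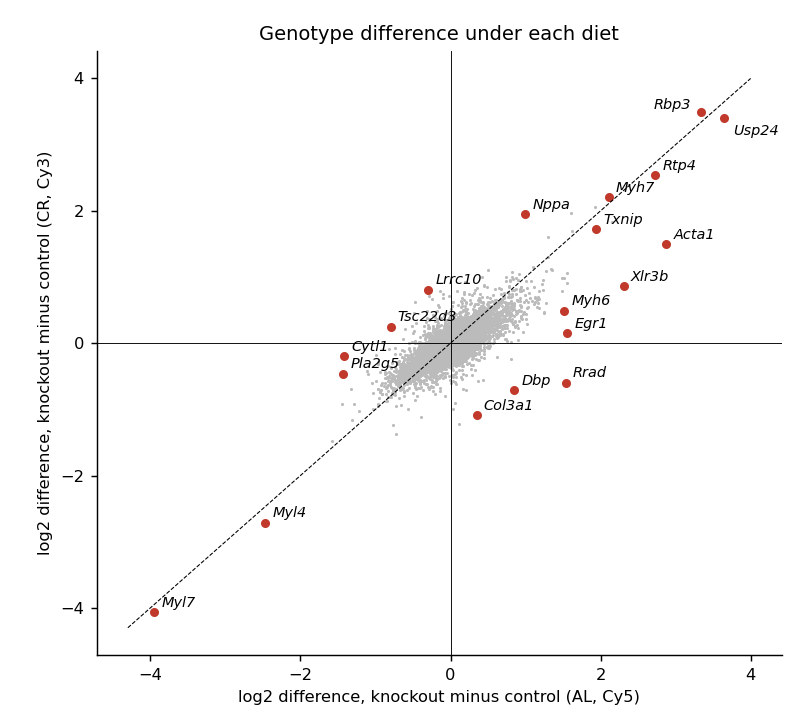
Log2 difference between the knockout and the control heart under CR (vertical axis, Cy3) against that under AL (horizontal axis, Cy5), 1 point per gene compared under both diets, with 19 genes in red and the dashed line marking equal differences. Myl7, Myl4, Usp24, Rbp3, Rtp4 and Myh7 lie near the line, and Rrad, Dbp, Egr1 and Col3a1 far below it.

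Side by side, the list medians under AL and CR were 0.51 and 0.28 for glycolysis, 0.43 and 0.37 for the Z-disc list, 0.43 and 0.21 for the Krebs cycle, -0.33 and -0.24 for ribosomal proteins and 0.26 and 0.10 for the matrix. Fatty acid genes were at 0.25 and -0.02, and glucocorticoid-responsive genes at 0.10 and 0.36. Genes with the widest gap between the diets included Rrad (1.53 and -0.60), Dbp (0.85 and -0.71), Col3a1, a fibrillar collagen (0.35 and -1.09), Tsc22d3 (-0.80 and 0.25), Lrrc10, a cardiac leucine-rich repeat protein (-0.30 and 0.80), and Cytl1 (-1.42 and -0.19). For Col3a1 the knockout CR heart was at 7.37 against 8.46 in the control CR heart, both in Cy3. The knockout AL heart was at 9.67 against 9.32 in the control AL heart, both in Cy5. Levels are compared within a dye only. The AL difference of Col3a1 was -0.92 with the local background subtracted. None of these gaps was tested.

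The 40 compared genes nearest to Sirt1 on its chromosome, 20 on either side in the RefSeq order, showed no common direction, with 19 higher, 21 lower and a median of -0.01. At least 1.5-fold apart were Ccar1, a regulator of the cell cycle and apoptosis (just over 2-fold higher), Hk1 (0.74) and Macroh2a2, a variant histone (-0.61). These are 2 genes higher and 1 lower of 40, against 2.57% and 1.78% of all genes.

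Besides the genes compared, 419 were above the blank spots only in the knockout heart and 902 only in the control heart. All were dim, and the bounds were small. The highest were at least 1.35-fold for Gjb1, a connexin of liver and nerve, in the knockout heart and at least 1.26-fold for Aqp4, a water channel, in the control heart.

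**Figure D5:**
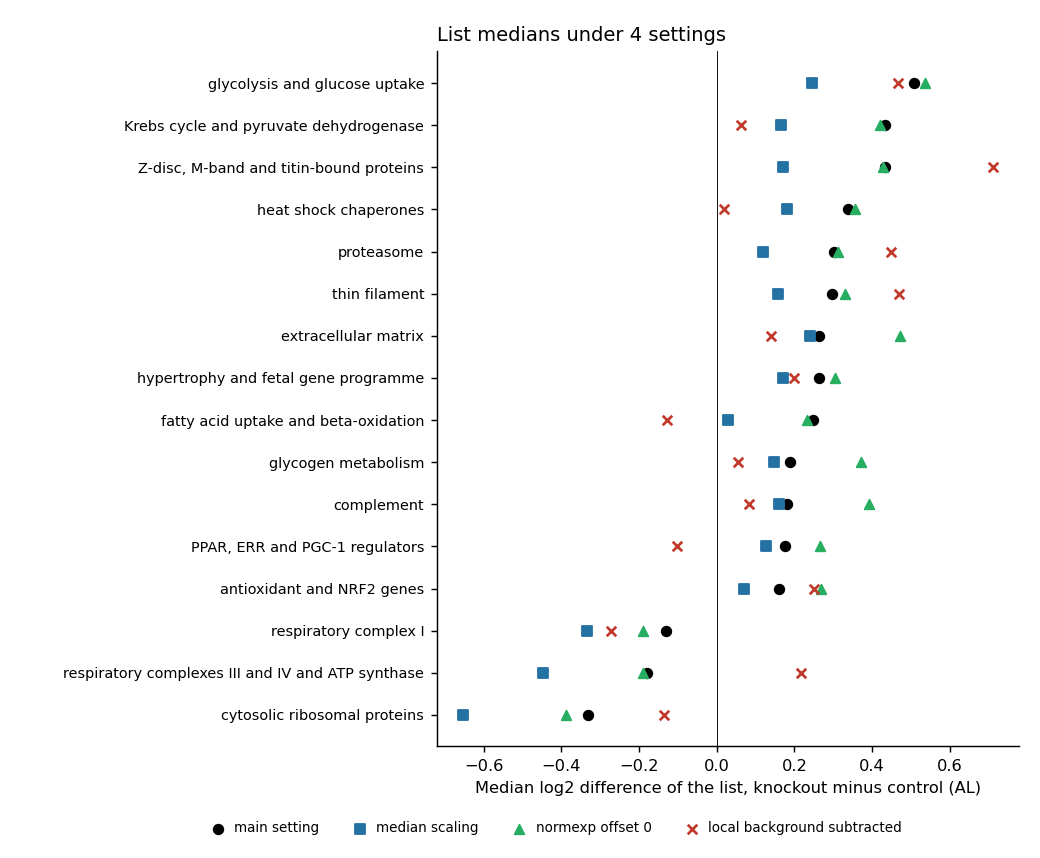
Median log2 difference between the knockout and the control AL heart (horizontal axis) of 16 pathway lists under the main setting and 3 alternatives. Glycolysis, the Z-disc list, the proteasome and the thin filament stay above 0 and complex I and ribosomal proteins below 0 under all 4, while fatty acid oxidation, the PPAR list and complexes III and IV with ATP synthase change side with the local background subtracted.

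The processing bears on these values in a way that differs between genes. Signals were read without subtraction of the local background, which made up over 50% of the spot signal for 82.8% of detected probes in the control and 86.3% in the knockout AL heart. Of 135 named genes at least 1.5-fold apart, 85 stayed so, in the same direction, in every setting run, among them Myl7, Myl4, Acta1, Myh7, Usp24, Rbp3, Rtp4, Gh, Myot, Myom2, Hk2, Pfkm, Sdha, Nppa, Col1a1, C1qa, Igf2, Pdk4 and Rps27. On simulated arrays built from these signals, a true log2 difference of 1 was measured as 0.81 in the median and one of -1 as -0.71. One of 2 was measured as 1.66 and one of -2 as -1.34, so simulated differences in both directions were understated. The probes given a difference were all brighter than the median detected probe of the control AL heart, so recovery for dimmer probes was not measured. None of 17757 simulated probes without a difference passed 1.5-fold, which shows the arithmetic and leaves out the spread between mice and slides.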

How the data were processed

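RNA of 4 whole mouse hearts had been amplified, coupled to Cy5 (AL) or Cy3 (CR) and hybridised to 2 arrays, per the labels. Per the file headers, the deposited files give each spot's intensity as the median brightness in either channel. Intensities were corrected with normexp (offset 50) without local background, with control spots at weight 0 and flagged spots left out, then normalized by loess within and Aquantile between arrays in limma 3.58.1 (R 4.3.3). Separate channels were taken and Cy5 signals subtracted, knockout minus control. A probe was detected above the blank mean (5% trimmed at each end) plus 2 SD. The brightest probe stood for a gene. Of 23473 probes 6842 had no symbol, 3947 symbols were updated through RefSeq and 62 did not match. The differences were tested on simulated data for recovery of known changes. With 1 heart a side there is no p-value, no SD over mice and no leave-one-out, and the number of arrays limits the precision. The 51 gene lists and the members were chosen with earlier results of these data known. Named are Sirt1, the 20 highest and 20 lowest genes at or above the median signal, up to 6 members per list farthest from 0, the isoform pairs and up to 6 bounds each way. Other list members are named for their role or as partners, after their values were seen. The 8 alternatives were local background subtracted, offset 0, median scaling between arrays, quantile scaling of the Cy5 channel without loess, loess within blocks, no detection filter, genes at or above the median signal and the mean of all probes.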

Additional observations from a re-analysis of the deposited data

Results flagged for a closer look

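For 12 named genes the knockout heart stood on opposite sides of the control heart under the 2 diets, by at least 1.1-fold each time. With 1 heart per condition the difference between the diets was not tested for any of them. Rrad, the calcium channel inhibitor, was at 1.53 under AL and -0.60 under CR. Dbp, a clock output factor, was at 0.85 and -0.71, and Nr1d1, a repressor of the clock loop, at 0.27 and -0.39. Tsc22d3, which glucocorticoids turn on, was at -0.80 and 0.25, and Ccn2, connective tissue growth factor, at -0.49 and 0.46. Ahsg, a liver secretory protein, was at -0.16 and 0.58, the death receptor Fas at -0.46 and 0.30, and Dbh, which makes noradrenaline, at -0.50 and 0.15. The lysosomal protease Ctsl was at 0.30 and -0.34, the MHC class II invariant chain Cd74 at 0.25 and -0.30, the carbonic anhydrase Car3 at -0.23 and 0.25, and the smooth muscle protein Tagln at -0.27 and 0.14. With the local background subtracted the AL differences of Rrad (-1.90), Fas (0.03) and Dbh (0.03) changed sign. The diets were also read in different dyes, so diet and dye cannot be told apart in these gaps.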

How the results depend on the processing

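No paired analysis was possible because each condition was measured in 1 heart. Subtracting the local background moved most: 596 genes were then at least 2-fold higher and 600 lower, 1236 and 1219 at least 1.5-fold, and 50.5% of genes were higher. With normexp offset 0 the counts were 165 and 81 at 2-fold and 867 and 688 at 1.5-fold. Median scaling between arrays gave 36 and 34 at 2-fold, 407 lower at 1.5-fold and 50.9% higher. The share higher was 51.8% with the Cy5 channel quantile-scaled alone and 51.6% with no detection filter. Loess within blocks, the mean of all probes and the restriction to genes at or above the median signal moved no count by over 1.5 times. With the local background subtracted the list medians were 0.71 (Z-disc), -0.11 (calcium handling), -0.13 (fatty acid oxidation), -0.10 (PPAR regulators), -0.57 (fuel switching), 0.064 (Krebs cycle), 0.22 (complexes III and IV and ATP synthase), 0.54 (MHC class II), 0.018 (heat shock), 0.26 (autophagy), 0.60 (cardiomyocyte), -0.089 (fibroblast) and 0.14 (neutrophil). With median scaling they were 0.17 (Z-disc), 0.24 (glycolysis), 0.17 (Krebs cycle), -0.45 (complexes III and IV and ATP synthase) and -0.65 (ribosomal). Smooth muscle markers were at 0.35 with offset 0 and neutrophil markers at 0.082 with no detection filter. Of the 135 named genes at least 1.5-fold apart, 15 changed sign, all with the local background subtracted, as did 61 of the 164 named genes closer together; the 15 were Acadvl (-0.76), Bdh1 (-0.47), Fh1 (-0.65), Hsp90aa1 (-0.34), Mybpc3 (-0.88), Ndufb4 (1.93), Ndufs1 (-0.70), Nppb (-0.72), Pkm (-1.37), Psmd1 (-0.016), Pygm (-0.94), Rgs5 (-0.97), Rrad (-1.90), Tcf21 (-0.089) and Tnp2 (0.38). The cause was not tested for any of these. Local background and spot signal were correlated (Spearman 0.936 and 0.944 in the Cy5 channel), so the subtraction may remove signal as well as background, and which it does was not settled. In the main setting no gene of the 3 dimmest bins of signal was 1.5-fold apart, while a few in the other bins below the median signal were. The part of the offset in this was not tested.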
